A study of Arabidopsis thaliana with 6 samples.

Results

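The pectin methylesterase family of Arabidopsis thaliana was followed in root tips given either of 2 signalling peptides, CLE25 or CLE10. The family was taken as a list of 55 loci. A locus counted as measured where the array's annotation assigned a probe set to that gene alone, which held for 38 of the 55, among 13333 genes measured in that way on the array. Each of the 38 had a single such probe set. A further 4 loci shared 2 probe sets that name a pair of genes each, and 13 had no probe set named here.

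Root tips of 5 mm came from 7-day-old wild-type Col-0 seedlings, the standard laboratory accession, grown in shaken liquid medium under continuous light. One group was given chemically synthesized CLE25 at 1000 nM for 12 h, and the other CLE10 at the same dose and time, with 3 arrays in each group (n = 3 for every group mean). The study set out to find genes through which these peptides act differently on roots. No array of roots without peptide was analysed here, so each value sets CLE25 against CLE10 and gives no response to either peptide alone. Nothing in the labels ties replicate arrays to separate cultures, and p-values therefore cover no more than the spread among these 6 arrays, possibly a technical one.

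Pectin is a gel-forming polysaccharide of the primary cell wall, and its main chain, homogalacturonan, is secreted with most of its acid groups methylated. Pectin methylesterases remove these methyl groups in the wall. The freed acid groups can be bridged by calcium, which stiffens the gel, or they open the chain to pectin-cutting enzymes, which loosens it. Many members of the family carry a pro region that resembles the separate inhibitor proteins of the enzyme and is cut off before secretion, in some cases by subtilases. CLE10 is known to inhibit protoxylem formation in roots, and CLE25 is known from phloem formation and from the response to drought.

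The arrays were alike in their overall values after the global scaling described below. Signals are linear probe-set values whose trimmed mean was 500 on all 6 arrays, with medians between 157 and 172. The equal trimmed mean follows from that scaling and is no check of the arrays. RNA quality, taken as the log2 difference of 3' over 5' probe sets for the actin and GAPDH controls, was 2.22 ± 0.18 (SD) with CLE25 and 2.17 ± 0.12 with CLE10 (exact permutation test, two-sided, p = 0.7, where the smallest possible p is 0.1). Of 7 root meristem markers, BBM and JKD were measured. BBM was at 103 ± 30.7 (SD) with CLE25 and 121 ± 13.4 with CLE10. JKD was at 142 ± 17.6 with CLE25 and 147 ± 58.5 with CLE10. No root cap marker had a probe set naming it alone. LHCB4.1, the measured one of 5 green tissue markers, was between 40.2 and 129 with CLE25 and between 91.9 and 148 with CLE10. Its lowest signal was on CLE25 replicate 3, and its log2 difference, CLE25 minus CLE10, was -0.49 with a standard error of 0.35. The labelled tissue was thus checked on few genes. In bulk samples, fewer cells of a type and less RNA per cell cannot be told apart.

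A minority of the measured members gave a clear signal in root tips. The test left out, as dim, probe sets with a mean log2 value over all arrays below the 40th percentile, which is a signal near 92.3. This left 16 of the 38 measured members, or 42.1%, against 55.5% of all genes measured by a probe set of their own. The mean signals of these 16 ran from 131 to 3685 with a median of 475, and 4 of them exceeded 1000. The other 22 members had mean signals from 3.88 to 85.8, with a median of 16.1. Probe sets differ in how well they bind their targets, so these signals show which probe sets were bright and do not rank the genes by transcript level.

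**Figure D1:**
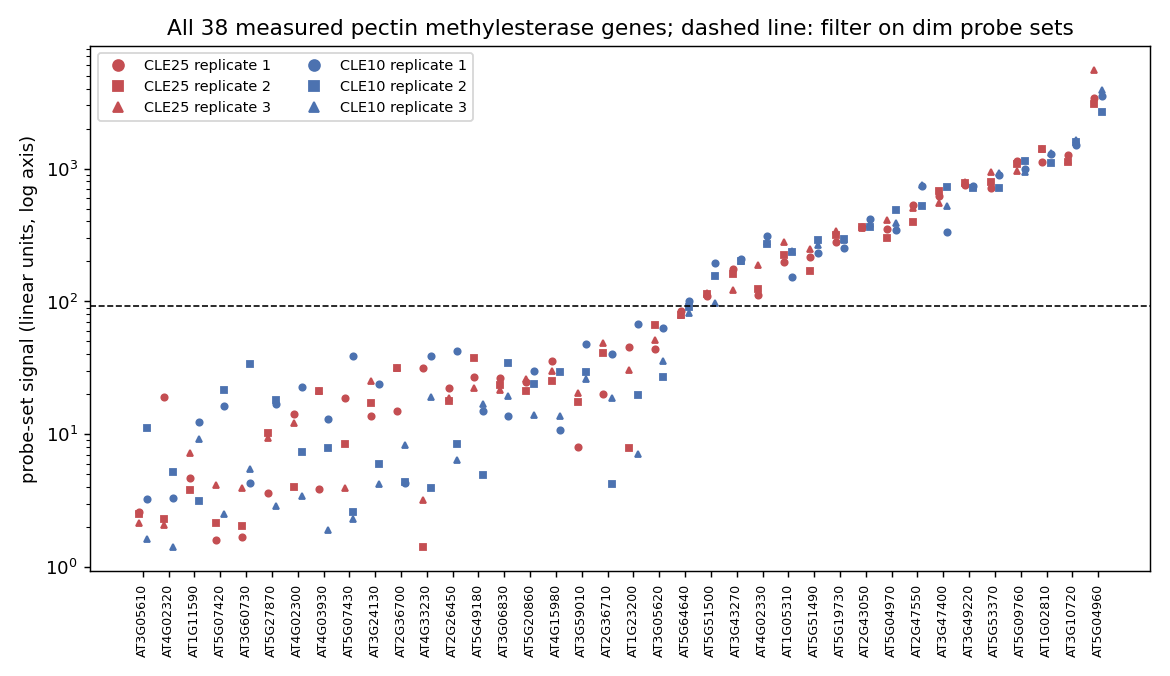
Probe-set signal (linear units on a log axis) of the 38 measured pectin methylesterase genes, ordered by mean signal, with a point for each of the 3 CLE25 arrays and the 3 CLE10 arrays. The 16 genes above the dashed line (a signal near 92.3) were tested, and the 22 below it scatter widely between arrays.

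No member passed the test between the peptides, and in the fit described here the members of smallest p all had lower signal with CLE25. Other settings brought in some members with higher signal, as given at the end. In limma over all 13648 probe sets tested, 0 of the 16 members and 0 (0%) of all probe sets passed an adjusted p of 0.05. The smallest adjusted p among members was 0.319. An unadjusted p under 0.05 was seen for 4 of the 16 members (25%), against 4.21% of all probe sets tested. These were ATPMEPCRB (AT4G02330), AT3G10720, AT2G47550 and AT3G43270, all lower with CLE25. Of all 575 probe sets at that p, 314 were lower with CLE25, which is 2.3% of all probe sets tested. With the replicate number as a block these same 4 members had an unadjusted limma p under 0.05, against 5.96% of all probe sets, and 0 members passed the adjusted p, against 0.00733% of all probe sets. Since the family was picked with ATPMEPCRB already known to have a low p, the count without it is also given, which was 3 of 15 (20%).

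Of these 4 genes ATPMEPCRB, also named PME41 and known from the response to cold, differed most. Its signals were 111, 124 and 188 with CLE25, against 310, 270 and 279 with CLE10. All CLE25 arrays lay below all CLE10 arrays, and CLE25 replicate 3 stood nearest to the CLE10 arrays. Fold changes are on the log2 scale, as CLE25 minus CLE10 and with a standard error, and a pseudocount of 6.03 added to each signal makes them understate the differences of dim genes. The group means were 141 ± 41.5 (SD) with CLE25 and 287 ± 20.9 with CLE10. This gave a log2 fold change of -1.03 ± 0.19, with an adjusted p of 0.319 in limma. It ranked at number 8 from the lowest log2 fold change among the 13648 probe sets. Over the alternatives tried, the adjusted p of ATPMEPCRB ran from 0.0687 to 0.9998, and its log2 fold change from -1.24 to -0.71.

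AT3G10720, a member with bright signal in every array, had a smaller difference with little spread. Its signals were 1259, 1125 and 1143 with CLE25, against 1497, 1573 and 1640 with CLE10. The groups did not overlap. The means were 1176 ± 72.9 (SD) with CLE25 and 1570 ± 71.5 with CLE10, and the log2 fold change was -0.42 ± 0.10 (adjusted p = 0.856 in limma), a signal about 0.749 times that with CLE10. Its neighbour in the genome, AT3G10710 or RHS12, a gene named for its specific expression in root hairs, had no probe set naming it here. Whether the probe set of AT3G10720 also binds that neighbour's transcript was not tested.

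AT2G47550 had signals of 528, 395 and 503 with CLE25, against 734, 519 and 747 with CLE10. Its groups overlapped only in that CLE25 replicate 1 lay just above CLE10 replicate 2. Replicate 2 was the lowest array of both groups, and each CLE25 array lay below the CLE10 array of the same number. Its log2 fold change was -0.47 ± 0.16, at an adjusted p of 0.9995 in limma, or 0.476 with the replicate number as a block. AT3G43270 had signals of 174, 161 and 121 with CLE25, against 209, 201 and 200 with CLE10, with no overlap. Its CLE10 arrays were close together and CLE25 replicate 3 was the lowest, and the log2 fold change was -0.42 ± 0.17, which was -0.27 without that array.

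**Figure D2:**
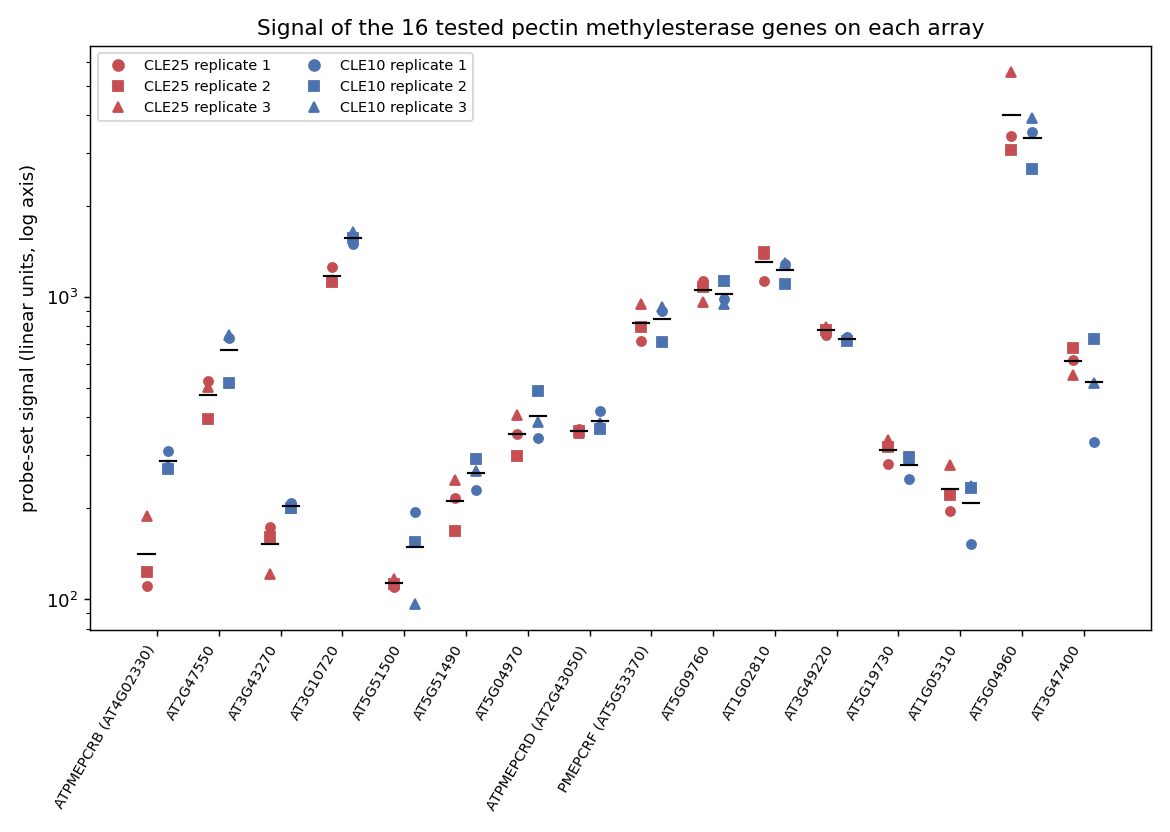
Probe-set signal (linear units on a log axis) of the 16 tested genes on each array, CLE25 left of CLE10 for each gene, with the group mean as a bar and genes ordered by log2 fold change. ATPMEPCRB, AT3G43270 and AT3G10720 show no overlap of the groups on the left, and CLE25 replicate 3 stands high for AT5G04960.

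The other 12 tested members had smaller or less even differences. Of them, 7 had higher and 5 had lower signal with CLE25, and the 95% confidence intervals of their log2 fold changes lay between -0.84 and 0.78. All 16 members together had a median log2 fold change of -0.08, against -0.0024 over all probe sets tested, with 9 lower and 7 higher. The median was -0.046 without ATPMEPCRB. The median size of the log2 difference, whatever its sign, was 0.21 in the 16 members and 0.0954 over all probe sets. That size was 0.19 without ATPMEPCRB. The standard errors of the members were somewhat larger too, with a median of 0.16 against 0.14. The sign of the family median depends on the filter: it was 0.03 with all 38 measured members and 0.05 with the 11 members above the 60th percentile.

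The groups of arrays did not overlap in 5 of the 16 members (31.2%), against 9.18% of all probe sets tested, and in 4 of 15 (26.7%) without ATPMEPCRB. They were lower with CLE25 in 4, ATPMEPCRB, AT3G10720, AT3G43270 and ATPMEPCRD (AT2G43050), against 4.51% of all probe sets. They were higher in 1, AT3G49220, against 4.67%. ATPMEPCRD had 366, 361 and 354 with CLE25 and 419, 366 and 384 with CLE10, so the highest CLE25 and the lowest CLE10 array were almost equal. Its log2 fold change was -0.11 ± 0.12, and it was -0.056 without CLE10 replicate 1. AT3G49220, known from work on stomata and heat tolerance, had 751, 780 and 798 with CLE25 and 737, 717 and 730 with CLE10. Its log2 fold change was 0.09 ± 0.10. The separation of these last pairs of groups was small beside the standard error of the fit, which draws on the spread of other probe sets of like signal.

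The brightest probe set of the family, that of AT5G04960, varied between arrays much as the measured root hair markers did. Its signals were 3407, 3074 and 5531 with CLE25, against 3517, 2658 and 3919 with CLE10. The log2 fold change of 0.22 ± 0.20 rested on CLE25 replicate 3, and it was -0.04 without that array. EXPA7 and EXPA18, expansins that mark root hair cells and the measured ones of 5 root hair markers, had their highest signals on the same array, at 2596 and 4049. AT1G05310, PMEPCRF, AT5G19730 and AT3G49220 were highest on that array too, while the other tested members were not. A peak there was thus not particular to root hair genes. Relative to its own mean over the 6 arrays, that array stood at 1.5 for AT5G04960, 1.5 for EXPA7 and 1.32 for EXPA18. CLE10 replicate 2 stood at 0.721, 0.764 and 0.86 for the same genes, and CLE25 replicate 2 at 0.834, 0.79 and 0.854. The summed signal of the root hair markers ran from 3985 to 6645 with CLE25 and from 3960 to 5003 with CLE10. The part of root hair cells in the values of AT5G04960 was not tested.

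**Figure D3:**
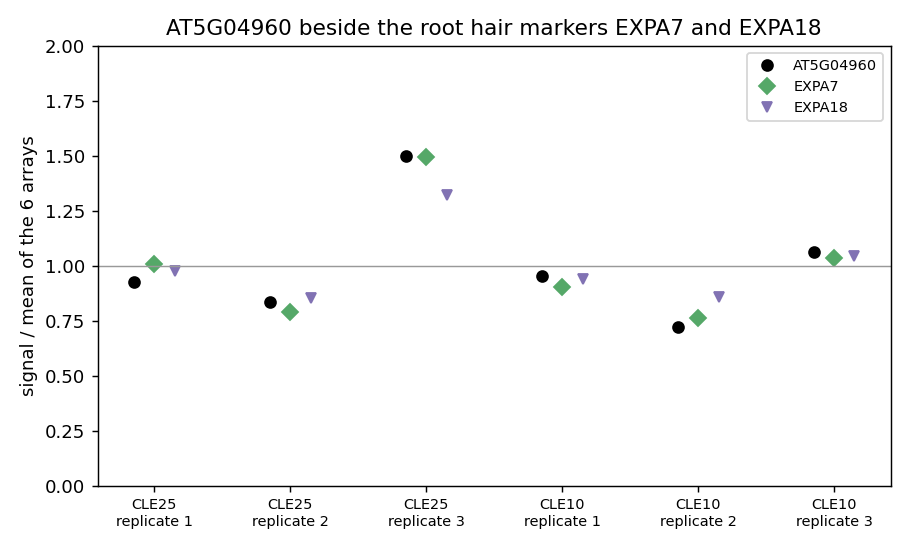
Signal of AT5G04960, EXPA7 and EXPA18 on each array, divided by that gene's mean over the 6 arrays (the line at 1). All of these genes stand highest on CLE25 replicate 3, at 1.5, 1.5 and 1.32, and lowest on replicate 2 of CLE10 or of CLE25.

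The values of AT3G47400 and PMEPCRF depended on single arrays. AT3G47400 had 619, 679 and 553 with CLE25, against 331, 727 and 519 with CLE10, a log2 fold change of 0.29 ± 0.22. The low value of CLE10 replicate 1 carried it, and without that array it was 0.00033, while it was 0.56 without CLE10 replicate 2. PMEPCRF (AT5G53370) had 715, 797 and 949 with CLE25 and 900, 710 and 931 with CLE10, and its log2 fold change of -0.05 ± 0.14 changed sign on leaving out any of 3 arrays. Both genes had overlapping groups.

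AT1G02810 and AT5G09760 had similar means in both groups. AT1G02810 had 1129, 1411 and 1391 with CLE25, against 1283, 1102 and 1298 with CLE10, and a log2 fold change of 0.09 ± 0.12 with a 95% confidence interval from -0.17 to 0.35. AT5G09760 had 1133, 1081 and 963 with CLE25, against 984, 1134 and 946 with CLE10, and a log2 fold change of 0.05 ± 0.11 with an interval from -0.19 to 0.30. Their groups overlapped, and both intervals lie inside a 1.5-fold difference either way. Leaving out single arrays moved these small values too, from 0.015 without CLE10 replicate 2 to 0.19 without CLE25 replicate 1 for AT1G02810, and from 0.00037 without CLE10 replicate 3 to 0.13 without CLE10 replicate 2 for AT5G09760. Such an interval was seen for 7 of the 16 members, against 81.5% of all probe sets. For 15 of the 16 the interval lay inside a 2-fold difference, the exception being ATPMEPCRB, against 98.7% of all probe sets.

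AT5G19730 and AT1G05310 were dimmer members with higher means after CLE25. AT5G19730 had 281, 318 and 338 with CLE25, against 251, 297 and 291 with CLE10, and each CLE25 array lay above the CLE10 array of its number. Its log2 fold change was 0.16 ± 0.14, which dropped to 0.083 when CLE10 replicate 1 was left out and to 0.10 when CLE25 replicate 3 was. AT1G05310 had 197, 222 and 279 with CLE25 and 152, 234 and 238 with CLE10, a log2 fold change of 0.17 ± 0.20 that was -0.04 without CLE10 replicate 1. The groups overlapped in both genes, and both confidence intervals included 0, from -0.14 to 0.46 for AT5G19730 and from -0.27 to 0.60 for AT1G05310.

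**Figure D4:**
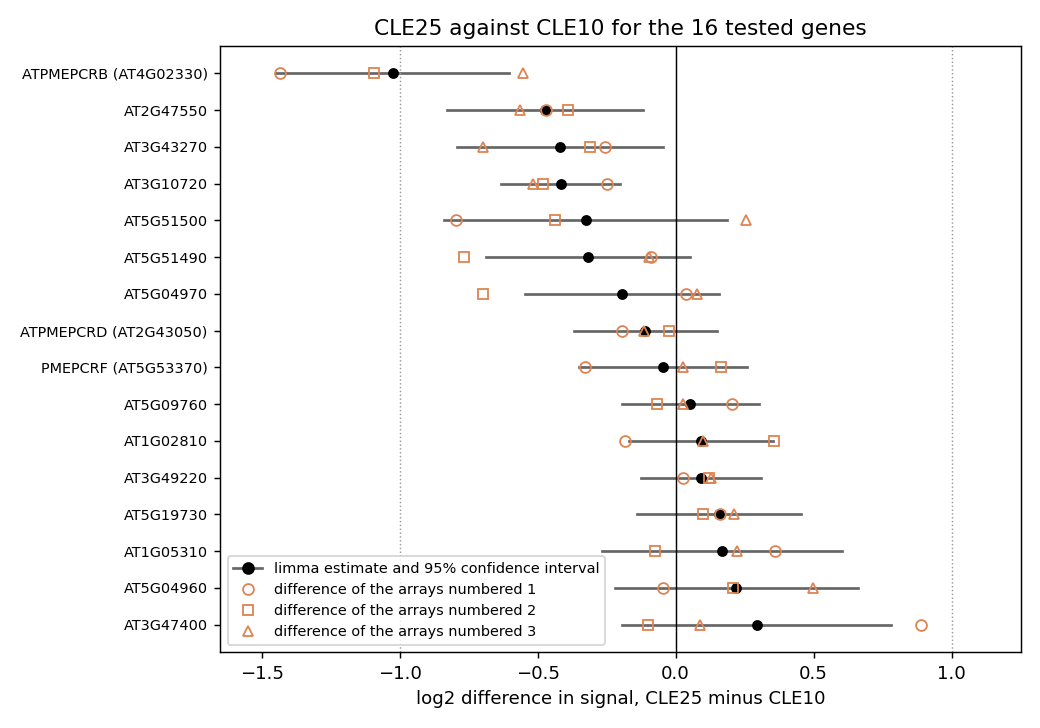
Log2 difference in signal, CLE25 minus CLE10, for the 16 tested genes, with limma's estimate and 95% confidence interval in black and grey, and the differences between arrays of the same replicate number as open symbols. Dotted lines mark a 2-fold difference, which the interval of ATPMEPCRB crosses, and the intervals of the lowest 4 genes lie below 0 before adjustment for the number of tests.

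Many members of the family lie side by side in the genome. In the gene order of the TAIR10.1 table, 14 pairs of members were next to each other, which took in 27 of the 55 loci. Both genes were measured in 6 of these pairs: both were bright enough to be tested in 2, both were dim in 3, and 1 pair held a gene of each kind. That mixed pair was AT4G02320, dim at a mean of 5.57, beside ATPMEPCRB at 214.

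The neighbours AT5G04960 and AT5G04970 were both tested and differed in their values. AT5G04970 had 351, 298 and 407 with CLE25, against 342, 487 and 386 with CLE10, with its highest array in CLE10 replicate 2, where AT5G04960 was lowest. Its log2 fold change was -0.19 ± 0.16, and leaving out a single array moved it between -0.31 (CLE10 replicate 1) and -0.05 (CLE10 replicate 2).

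The neighbours AT5G51490 and AT5G51500 were the other tested pair, and both had lower means with CLE25. AT5G51490 had 217, 169 and 248 with CLE25, against 231, 291 and 266 with CLE10, a log2 fold change of -0.32 ± 0.17 that was -0.17 without CLE25 replicate 2 and -0.44 without CLE25 replicate 3. AT5G51500 had 110, 113 and 117 with CLE25, against 195, 155 and 96.7 with CLE10, a log2 fold change of -0.33 ± 0.23. Its CLE25 arrays were almost equal while its CLE10 arrays spread widely, and the value was -0.11 without CLE10 replicate 1 and -0.60 without CLE10 replicate 3. Groups overlapped in both genes. Whether the probe sets of these neighbours also bind each other's transcripts was not tested.

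The 22 dim members gave no usable comparison. Their single signals ran from 1.42 to 100.1, and 11 had a higher and 11 a lower mean with CLE25. The brightest of them, AT5G64640, lay just under the filter, with 85.0, 78.5 and 79.0 with CLE25 and 100.1, 90.6 and 81.7 with CLE10. Groups did not overlap in 4 of these 22 members (18.2%), against 8.87% of all dim probe sets, and the 4 are named after their values were seen. AT2G36700 had 14.9, 31.8 and 31.5 with CLE25 and 4.32, 4.36 and 8.32 with CLE10. AT5G49180, known from seed mucilage, had 27.1, 37.3 and 22.4 with CLE25 and 15, 4.91 and 16.8 with CLE10. These were higher with CLE25. PME61 (AT3G59010, also named PME35), known from the supporting tissue of stems, had 8.09, 17.6 and 20.5 with CLE25 and 48.1, 29.6 and 26.3 with CLE10. AT3G60730 had 1.70, 2.03 and 3.93 with CLE25 and 4.27, 33.9 and 5.49 with CLE10, where 1 array is far above the others. At such signals no fold change is given.

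Pectin methylesterases known from pollen were among the dim genes. The pollen genes AT5G07420 and AT5G07430 had means of 2.63 and 10.4 with CLE25 and 13.5 and 14.6 with CLE10. The probe set shared by VGD1 and VGDH1, of which VGD1 is needed for growth of the pollen tube, gave 1.15 to 4.36 with CLE25 and 1.18 to 3.87 with CLE10. The one shared by PPME1 and AT5G07410 gave 3.93 to 10.1 with CLE25 and 1.60 to 34.5 with CLE10. The measured ones of 4 pollen markers, ACT12 and AT1G29140, summed to between 16.6 and 26.7 with CLE25 and between 7.34 and 43.4 with CLE10. All of these are far under the filter. AT1G23200, known from seed mucilage and the seed embryo, was also dim, at 28.0 ± 18.9 (SD) with CLE25 and 31.8 ± 32.2 with CLE10.

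Several well-studied members are not covered. PME2, PME3, PMEPCRA, PME5, PME31 and AT2G45220 (PME17), a gene of the defence of leaves against fungi, had no probe set named here.

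Few other genes of the pectin pathway could be followed, and 0 of them passed in limma. Lists were made by name in the gene table, and the pectin methylesterase inhibitors, pectate lyases and pectin acetylesterases had 0 members with a probe set of their own. In homogalacturonan synthesis 2 of 29 loci were measured and both tested. AT3G49720, known as a methyltransferase that adds methyl groups to homogalacturonan, the step before the enzymes described here, had 4183 ± 246 (SD) with CLE25 and 4475 ± 325 with CLE10, a log2 fold change of -0.10 ± 0.10. GAUT15, of the galacturonosyltransferase family, had 198 ± 21.1 with CLE25 and 175 ± 35.3 with CLE10, a log2 fold change of 0.19 ± 0.18. Their groups overlapped. The polygalacturonase ADPG1, known from the opening of fruits, was dim, at 12.0 ± 9.69 with CLE25 and 2.87 ± 1.88 with CLE10.

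Subtilases, proteases of the family that can cut the pro region, had 11 of 19 loci measured and 5 tested. Of these, 2 had higher and 3 had lower signal with CLE25, with log2 fold changes from -0.10 to 0.09 and a median of -0.02. At an unadjusted limma p under 0.05 there were 0 of the 5, against 4.21% of all probe sets. S1P, known to be involved in the release of the mature enzyme from its pro region, had 297 ± 31.1 (SD) with CLE25 and 318 ± 9.89 with CLE10, a log2 fold change of -0.10 ± 0.13. SBT3.5, known to process PME17 in roots, lay close to the filter, at 99.7 ± 19.1 with CLE25 and 92.9 ± 13.5 with CLE10, with 0.09 ± 0.22. SBT4.12 was the brightest of the list, at 4733 ± 752 with CLE25 and 4986 ± 484 with CLE10, with a log2 fold change of -0.08 ± 0.13.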

How the data were processed

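Total RNA of the root tips was labelled with biotin and measured on Affymetrix arrays, per the labels' protocols. The authors deposited linear intensity values, a signal for each probe set and array. Per the submitters' processing notes they used GCOS 1.4, and the sources used here do not give its settings. The trimmed mean (2% at each end) was the same on all 6 arrays, which shows a global scaling, and the values were used as deposited. Of 22810 probe sets, 64 controls were left out of the gene tests, and the rest named 1 gene (13513), several genes (503) or no gene (8730) here. Names come from the platform's annotation, brought up to date by gene identifier from the TAIR10.1 table, which served for names and neighbours only. No coordinates are printed, since the sources used here name no genome build for the probe sets.

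Signals were analysed as log2(signal + 6.03), the pseudocount being the 10th percentile of all values. The comparison of CLE25 with CLE10 used limma 3.58.1 (R 4.3.3, lmFit, eBayes with a variance trend) over the 13648 probe sets at or above the 40th percentile of mean log2 signal. P-values were adjusted by Benjamini-Hochberg over all of them, with a threshold of 0.05 and no replicate block. For arrays, their number limits the precision. The fit was tested on simulated data whose spreads were drawn from the fit's own model. That run was not used to judge which differences these 6 arrays could detect.

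The members, lists and tests were chosen with earlier results of these data known. Named with values were members of an unadjusted p under 0.05 or without overlap, the 6 brightest others, members known from root work and, added after the values were seen, the other tested members. Of the pectin lists, up to 2 genes of smallest p and the brightest were named by that rule, and S1P and SBT3.5 because both act on pectin methylesterases. Alternatives were other filters, pseudocounts, normalization, variance settings, a replicate block and leaving out each array. Same-numbered arrays deviated from their group means with correlations of 0.0761, 0.136 and 0.221. For arrays of different number these were lower, from -0.162 to 0.0202. As the labels leave the meaning of the numbers unstated, the arrays were treated as unpaired.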

Additional observations from a re-analysis of the deposited data

How the results depend on the processing

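No member was called under any alternative run (0 throughout, 0 to 0 on leaving out an array). Over all probe sets 0 to 0 were called on leaving out an array, and 1, which is no member of the family, with a replicate block. With the block the same 4 members had an unadjusted limma p under 0.05, and 5.96% of all probe sets did. ATPMEPCRB then had an adjusted p of 0.228, the range over its alternatives being 0.0687 to 0.9998. The family median of -0.08 was 0.034 with no filter (38 members) and 0.053 with the filter at the 60th percentile (11 members), and ran from -0.13 to -0.05 on leaving out an array. Members at an unadjusted p under 0.05 numbered 7 of 38 with no filter and 2 of 11 with the stricter filter. Leaving out an array gave 2 to 4 of 16. The stricter filter took out ATPMEPCRB and AT3G43270 before the test. With no filter, AT2G36700 and AT5G49180 (both higher with CLE25) and PME61 (lower) came in. On leaving out an array, ATPMEPCRB and AT3G10720 always stayed. AT3G43270 dropped out when any CLE10 array or CLE25 replicate 3 was left out. AT2G47550 did so for CLE10 replicate 1 or 3 or CLE25 replicate 2. AT3G47400 (higher) came in without CLE10 replicate 2, AT5G51500 (lower) without CLE10 replicate 3 and AT5G51490 (lower) without CLE25 replicate 3. Without CLE10 replicate 1 there were 2, ATPMEPCRB and AT3G10720, when the count over all probe sets was 358 in place of 575 (of 13648 tested). That count was 889 without CLE25 replicate 2. It was 980 of 22746 with no filter and 362 of 9099 with the stricter filter, which tests fewer probe sets. Leaving out an array reversed PMEPCRF (-0.17 to 0.047), AT5G04960 (-0.037 to 0.39) and AT1G05310 (-0.037 to 0.28), and the causes were not tested. The RNA quality difference, 0.05, was -0.10 in a second control series and 0.13 for ubiquitin, and ran from -0.03 to 0.15 on leaving out an array. The counts of members at an unadjusted p and the alternatives for the pectin lists were added after the data were seen. Dim signals limit 22 of the 38 measured members.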
